A study of Mus musculus with 4 samples.

Results

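Regions of strain-enriched H3K27ac whose centre lay in an ERVK repeat were examined in embryonic stem (ES) cells of the NOD (non-obese diabetic) mouse strain and of C57BL/6 (B6). Histone H3 acetylated at lysine 27 (H3K27ac) marks active enhancers and promoters. Members were all regions of the B6-enriched and NOD-enriched H3K27ac lists whose centre the authors' repeat annotation placed in an LTR element of the ERVK family, and there were 1123 of 11651 regions, 432 of 5525 in the B6 list and 691 of 6126 in the NOD list. The ES cells came from mouse embryos of each strain and were cultured with 2i, the pair of kinase inhibitors that block MEK and GSK3. Each strain and mark was measured once, in 1 library, and the labels do not say which ES cell line or how many embryos stood behind it, so strain, cell line and library cannot be told apart. Regions of either strain were called against the other strain's library, and a region marked alike in both strains is not part of either list. No test between strains was possible, and the 95% Wilson intervals given below cover counting error over regions only. The lists cannot check the cell type of the samples. Of 16 ES cell markers, 8 were the nearest gene of any region in the B6 list and 8 in the NOD list, against 4 and 7 of 16 markers of endoderm, mesoderm, neural and trophoblast cells, and none of these 32 genes was the nearest gene of an ERVK region.

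ERVK elements are endogenous retroviruses of the beta-retrovirus-like class, copies of former infections that are inherited in the germ line. A complete copy has an internal part with the viral genes between a pair of long terminal repeats (LTRs), and recombination between the LTRs leaves a solitary LTR behind. LTRs hold promoter and enhancer sequence, and in ES cells most copies are silenced by zinc finger proteins that recruit TRIM28 and the histone methyltransferase SETDB1, and by DNA methylation. Growth in 2i lowers DNA methylation. Intracisternal A particle (IAP) and early transposon (ETn) elements are mobile in mice and differ in position between strains, and LTRs of the RLTR9 and RLTR13 groups are known for enhancer activity in mouse stem cells.

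Copies of one LTR in different places shared stretches of sequence, in both strain lists. For 4 LTR names, chosen after their sequences were seen, the run of 10 bases shared by the largest number of the name's 300 bp windows at region centres is printed in capitals with its surroundings, as read from the B6-derived reference GRCm38.p6, the assembly of mm10. Each copy is among the highest-scoring of its list that hold the 10 bases.
RLTR9E copy of the B6 list, chr6:107218423-107218522, minus strand: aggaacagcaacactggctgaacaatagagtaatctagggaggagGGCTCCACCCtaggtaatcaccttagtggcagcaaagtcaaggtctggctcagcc
RLTR9E copy of the NOD list, chr4:4550149-4550248, plus strand: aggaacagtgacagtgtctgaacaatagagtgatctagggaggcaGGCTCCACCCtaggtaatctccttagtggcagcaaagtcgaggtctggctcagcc
RLTR13D6 copy of the B6 list, chr19:12199193-12199292, plus strand: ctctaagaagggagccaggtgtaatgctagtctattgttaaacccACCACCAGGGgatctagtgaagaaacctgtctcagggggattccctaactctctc
RLTR13D6 copy of the NOD list, chr3:64321899-64321998, plus strand: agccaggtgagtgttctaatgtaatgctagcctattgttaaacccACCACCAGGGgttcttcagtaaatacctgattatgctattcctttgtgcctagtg
BGLII copy of the B6 list, chr6:129041992-129042091, plus strand: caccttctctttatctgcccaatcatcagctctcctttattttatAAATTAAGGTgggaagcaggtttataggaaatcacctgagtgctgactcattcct
BGLII copy of the NOD list, chr13:73458092-73458191, minus strand: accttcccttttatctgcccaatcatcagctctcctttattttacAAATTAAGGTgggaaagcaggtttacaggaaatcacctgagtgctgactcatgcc
RLTR17 copy of the B6 list, chr5:105544990-105545089, plus strand: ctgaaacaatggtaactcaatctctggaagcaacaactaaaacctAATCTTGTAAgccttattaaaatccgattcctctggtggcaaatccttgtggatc
RLTR17 copy of the NOD list, chr3:129474777-129474876, minus strand: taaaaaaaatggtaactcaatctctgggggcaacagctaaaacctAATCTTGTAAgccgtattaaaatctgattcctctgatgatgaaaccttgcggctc
The 10 bases in capitals were found in 27 of 49 RLTR9E windows (55.1%, 95% interval 41.3 to 68.1), in 30 of 90 RLTR13D6 windows (33.3%, 24.5 to 43.6), in 13 of 20 windows of BGLII (65.0%, 43.3 to 81.9) and in 7 of 19 windows of RLTR17 (36.8%, 19.1 to 59.0). In the 10528 windows of regions outside ERVK they were found in 0.275%, 0.0950%, 0.0855% and 0.0665%. By B6 and NOD list, RLTR9E had them in 12 of 22 and 15 of 27 windows. RLTR13D6 had them in 5 of 24 and 25 of 66, and BGLII in 6 of 8 and 7 of 12. RLTR17 had them in 3 of 5 and 4 of 14. Since the 10 bases were picked as the most common ones, these shares are a description. The printed RLTR9E pair was identical at 91 of 100 alignment columns, the BGLII pair at 94 of 102, the RLTR17 pair at 84 of 100 and the RLTR13D6 pair at 71 of 106. RMER6A was examined in the same way and is not printed. Its most common 10 bases were in 11 of 24 NOD windows but in 1 of 9 B6 windows, and its pair was identical at 78 of 102 columns. Both strains' copies were read from this one reference, and NOD variants within these copies were not analysed here.

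ERVK regions lay more often in the NOD list than in the B6 list. Of the 1123 regions, 61.5% (95% interval 58.7 to 64.3) were NOD-enriched, beside 52.6% of all listed regions and 51.6% (50.7 to 52.6) of the 10528 regions outside ERVK. ERVK thus made up 11.3% (10.5 to 12.1) of the NOD list and 7.82% (7.14 to 8.56) of the B6 list. Among other repeats, the NOD share was 69.2% (63.8 to 74.1) of 308 regions in ERV1, another class of endogenous retroviruses, and 58.2% (53.8 to 62.4) of 507 regions in L1 elements, which move without LTRs. It was 54.9% (51.9 to 57.8) of 1106 regions in SINEs, which are short non-coding elements, and 53.6% (49.6 to 57.5) of 603 regions in ERVL and ERVL-MaLR elements. The intervals of ERVK and of both ERV1 and L1 overlapped. ERVK had more NOD than B6 regions on 17 of 19 autosomes. The exceptions were chromosome 6, with 43 B6 and 34 NOD regions, and chromosome 11, with 41 and 27. On chromosome 6 the ERVK share of 44.2% NOD (33.6 to 55.3) lay above the 35.1% of all its regions, which its interval included. On 16 of 19 autosomes the ERVK share was above that of all regions of the chromosome, mostly with an interval that included it. The highest autosomal share was on chromosome 13, with 57 NOD and 19 B6 regions. A region of the other list overlapped 6 of 432 B6-enriched (1.39%) and 8 of 691 NOD-enriched (1.16%) ERVK regions, beside 1.10% and 0.996% of all regions, shares that were close.

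The families of ERVK differed among themselves. There were 175 repeat names in 55 families, of which 14 families with at least 20 regions held 884 regions. RLTR13 was the most frequent, with 232 regions, 72 in the B6 list and 160 in the NOD list (69.0% NOD, 62.7 to 74.6). MMERVK elements, nearly all of them internal parts, had 16 B6 and 88 NOD regions (84.6%, 76.5 to 90.3). RMER6 had 12 and 40 (76.9%, 63.9 to 86.3), ETn 18 and 37 (67.3%, 54.1 to 78.2), and RLTR17 8 and 18 (69.2%, 50.0 to 83.5). The interval of RLTR17 included the 52.6% of all regions, and those of the other families just named did not. RLTR9, the second most frequent family, was split evenly, with 59 B6 and 60 NOD regions (50.4%, 41.6 to 59.2), and its interval did not overlap that of RLTR13. RLTR25, RMER16, RMER17, MLTR25, BGLII, RMER19, RLTR11 and RLTR20 had between 22 and 49 regions each and NOD shares between 46.4% and 60.4%, with intervals that all included the share of all regions. The 41 families with fewer than 20 regions held 239 regions, of which 53.6% were NOD-enriched. Among them, RMER20 had 15 B6 and 4 NOD regions (21.1%, 8.51 to 43.3) and ERVB7 had 4 and 15 (78.9%, 56.7 to 91.5), both picked out after their values were seen. IAP, which the annotation gave for 17 regions, had 8 B6 and 9 NOD regions.

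**Figure D1:**
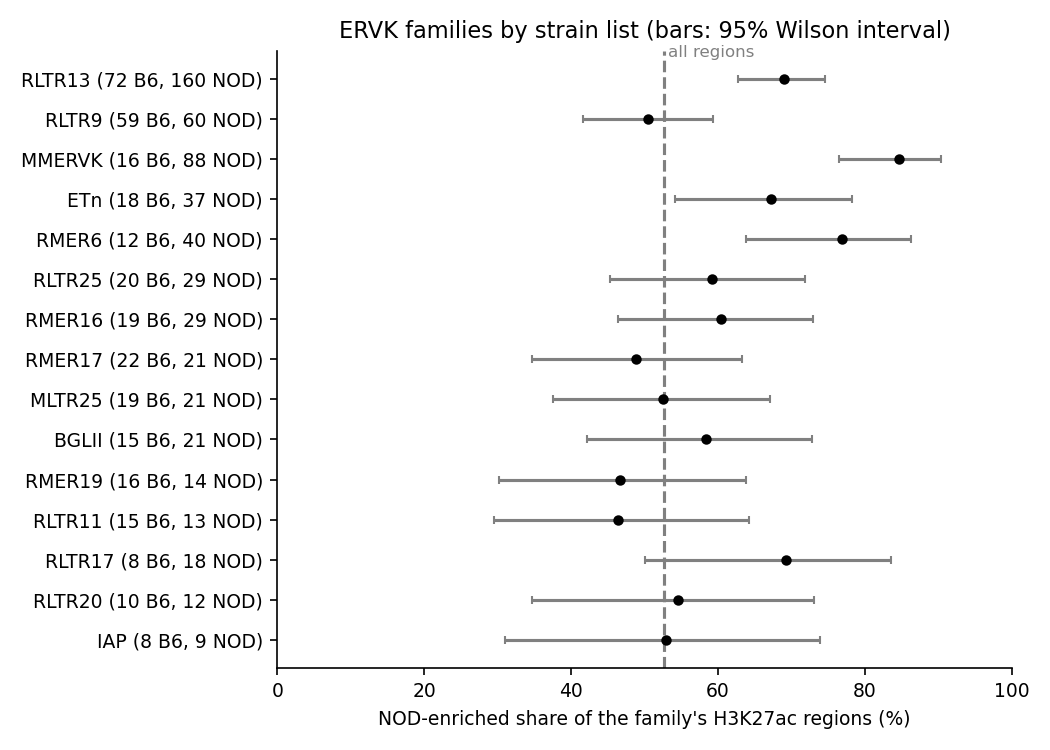
Share of NOD-enriched regions (x axis, percent) in the 14 ERVK families with at least 20 H3K27ac regions and in IAP (y axis, with the number of regions per list). Points are shares, bars are 95% Wilson intervals, and the dashed line is the 52.6% of all regions. RLTR13, MMERVK, ETn and RMER6 lie to the right of the line with their whole interval, and no family plotted lies wholly to the left of it.

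Within families, single repeat names stood out. Of 60 MMERVK9C_I-int regions, 56 were NOD-enriched (93.3%, 84.1 to 97.4), and of 42 regions in the related MMERVK9E_I-int 30 were (71.4%). RLTR13D6 was the most common name, with 24 B6 and 66 NOD regions (73.3%, 63.4 to 81.4), and RLTR13E followed the family with 10 and 21. RLTR9E, with 22 and 27, and RLTR9D, with 15 and 15, were close to even. RMER6A had 9 and 24, RLTR25B 13 and 19, RMER16-int 11 and 20, and MLTR25A 19 and 21. By part of the element, 75.8% (70.1 to 80.8) of the 244 regions in internal parts were NOD-enriched and 57.6% (54.3 to 60.8) of the 879 regions in LTRs, intervals that did not overlap. Of the 244, 103 were MMERVK regions, a family with a NOD share of 84.6%, and its part in the difference was not tested.

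The deposited score of a region is a difference of H3K27ac signal, own strain less other strain, whose scale is not stated in the files. In the NOD list, ERVK regions had a median score of 23.4 (quartiles 10.05 and 60.7), beside 12.5 (8.56 and 27) for the other regions of the list. In the B6 list the medians were 14.6 (9.50 and 35.4) and 12.7 (9.27 and 23.9). ERVK regions carried 17.0% of the summed score above 0 in the NOD list and 9.30% in the B6 list. The median ERVK region was also wider, and per kb of region the medians came closer, at 38.6 and 36.9 in NOD and at 36.3 and 35.8 in B6. Of the NOD-enriched ERVK regions, 67.6% scored above the median of the other regions, and 53.1% did so per kb.

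**Figure D2:**
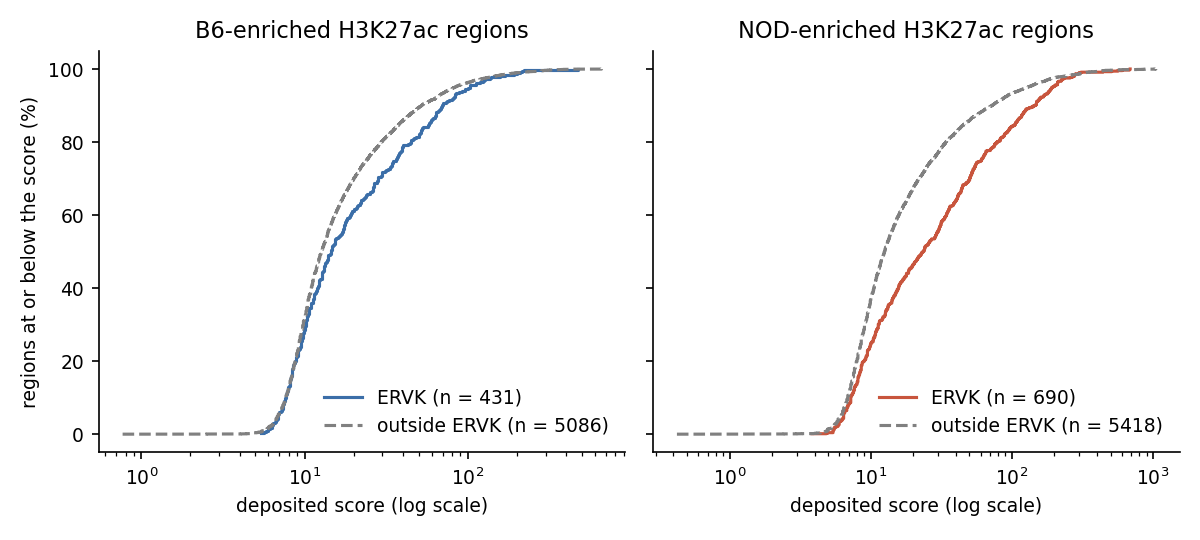
Cumulative share of H3K27ac regions (y axis, percent) by deposited score (x axis, log scale, no stated unit), for ERVK regions (solid) and regions outside ERVK (dashed) of the B6 list (left) and the NOD list (right). Regions with a score at or below 0 are left out, and the NOD curves lie farther apart than the B6 curves.

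The median NOD score was above the median B6 score in 11 of the 14 families. It was 33.8 in NOD and 17.45 in B6 for RLTR13, 40.15 and 15.2 for RLTR9, and 31.35 and 12.75 for MMERVK. RMER16 had 24.1 and 12.0, and RMER17 had 24.0 and 11.3. RLTR9 thus had equal numbers in both lists but higher scores in the NOD list. ETn went the other way, since its 37 NOD regions had a median score of 14.9 and its 18 B6 regions one of 54.25 (quartiles 35.3 and 100.7). At a minimum score of 20, 16 ETn regions were left in each list. IAP regions had a median of 37.95 in B6 and 26.9 in NOD. The scores of both lists come from separate calls, and a difference of their scales was not tested.

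Super enhancers are wide or strong clusters of enhancer signal at the steep end of a ranked score curve, and regions with a deposited slope value of at least 1 were counted as such. In the NOD list, 113 of 691 ERVK regions were super enhancers (16.4%, 13.8 to 19.3), beside 8.16% of the whole list. In the B6 list, 39 of 432 were (9.03%, 6.67 to 12.1), beside 7.06%. The NOD and B6 shares were 19.2% (14.5 to 25.1) and 7.37% for ERV1, and 11.9% (8.66 to 16.1) and 11.3% for L1. They were 7.74% and 5.71% for ERVL and ERVL-MaLR, and 6.59% and 8.82% for SINEs. The NOD intervals of ERVK and of both ERV1 and L1 overlapped. Of all 500 NOD super enhancers, 22.6% (19.2 to 26.5) had their centre in an ERVK element, and of all 390 B6 super enhancers 39 did (7.40% to 13.4%). A wide region can reach past the element at its centre. Super enhancers were 30 of 160 NOD and 12 of 72 B6 regions of RLTR13, and 19 of 88 and 1 of 16 of MMERVK. They were 13 of 60 and 4 of 59 of RLTR9, and 6 of 37 and 6 of 18 of ETn.

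The highest-scoring regions were of different families in each strain. In B6, the first was an RLTR13B2 element at chr6:93604983-93606723, 307 kb from the TSS of Magi1, a scaffold protein of cell junctions, with a score of 471.3 and rank 3 in the whole list. The next 4 scored far lower, at 221.7 (RLTR10-int in an intron, nearest to Mansc4), 214 (RLTR13C1 at chr11:73318144-73319671, nearest to Aspa, which breaks down N-acetylaspartate), 210.9 (MMETn-int nearest to Sec61a1, a subunit of the translocon) and 209.8 (MMETn-int nearest to Wiz, a zinc finger protein that binds histone methyltransferase complexes). The RLTR10-int region was 12.1 kb wide, and the MMETn-int regions, both ETn elements, were 12.3 and 11.2 kb wide.

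In NOD, the first was an MMERVK9C_I-int element at chr15:16908820-16915756, 134 kb from the TSS of Cdh9, a cadherin of neural tissue, with a score of 688 and rank 9. It was followed by RLTR49 nearest to Mfap3l with 679.2, RLTR20B1 nearest to Zfp970, a zinc finger protein gene, with 605.9, RMER16-int in an intron nearest to Rims2, which acts in synaptic vesicle release, with 561.9, and RLTR11A nearest to the vomeronasal receptor gene Vmn1r238 with 509.6. In this order, these regions were 27.5, 30.1, 7.72 and 0.545 kb wide. The repeat named is the one at the region's centre. All 5 scored above the highest B6 ERVK region. The scores come from separate calls, and the whole NOD list also reached higher, with a maximum of 1045.4 beside 658.6 in B6. Per kb of region, the Vmn1r238 region at chr18:3005608-3006153 had 935, the maximum of all NOD-enriched ERVK regions, beside their median of 38.6. Why it stood out was not tested. Cdh9 was the nearest gene of 5 NOD-enriched ERVK regions, spread over more than a megabase, with scores of 7.10, 43.6, 78.4, 160.6 and 688. Of these, 3 lay in RLTR13 elements. Pcmtd1 was the nearest gene of 4 NOD-enriched regions, with scores of 143.6 in ERVB2_1A-I_MM-int, 63.1 in ERVB7_3-LTR_MM, 52 in RLTR9D and 32.4 in MMERVK9E_I-int.

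Region widths differed between repeat families and, within families, between the lists. The median width was 426 bp for NOD-enriched and 337.5 bp for B6-enriched ERVK regions, beside 291 and 262 bp outside ERVK, and the smallest width listed was 233 bp in NOD and 262 bp in B6. A width from 1 to 2 kb was found in 26.0% (22.9 to 29.4) of NOD-enriched and 16.0% (12.8 to 19.7) of B6-enriched ERVK regions, beside 9.84% and 7.005% of all regions of the lists. Of the 232 RLTR13 regions, 111 (47.8%) were in this class, and of the 119 RLTR9 regions 33 (27.7%), but only 14.4% of MMERVK regions. The RLTR13 median was 1097.5 bp in NOD and 401 bp in B6, and the RLTR9 median 929.5 and 370 bp. ETn again went the other way, with 291 bp in NOD and 1584 bp in B6. Widths of 5 kb or more were found in 7.38% of NOD-enriched and 6.48% of B6-enriched ERVK regions, beside 9.21% and 9.03% of all regions, so the wider medians did not extend to the widest class. They were rare in LTRs, at 3.36% in NOD and 4.29% in B6, and more frequent in internal parts, at 18.4% (13.5 to 24.6) and 20.3% (12.0 to 32.3). MMERVK had 16 such regions, ETn 11, IAP and RMER17 7 each, RMER16 5, RMER6, which held LTRs only, 4, RMER19 3, RLTR20 2, RLTR9, RLTR25, BGLII and RLTR11 1 each, and RLTR13, MLTR25 and RLTR17 none.

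**Figure D3:**
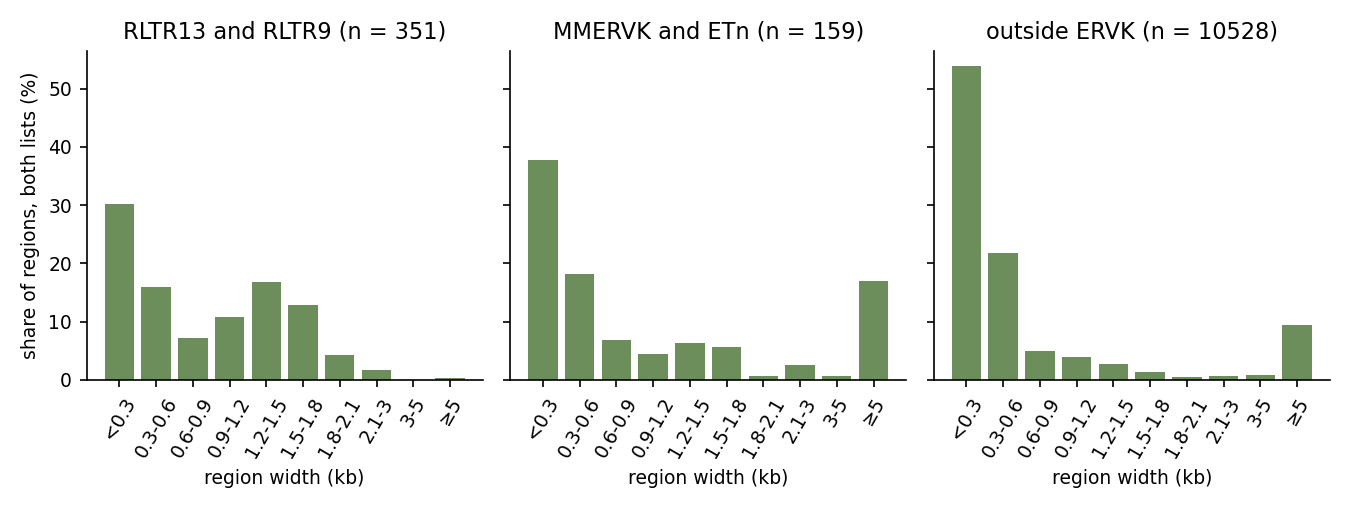
Share of H3K27ac regions of both lists (y axis, percent) by region width (x axis, kb, bins of unequal size from 1.8 kb on) for RLTR13 and RLTR9, for MMERVK and ETn, and for regions outside ERVK. RLTR13 and RLTR9 show a second rise between 0.9 and 1.8 kb. MMERVK and ETn show one at 5 kb or more, the open last bin. Regions outside ERVK rise there too, to 9.25% of B6 and 9.44% of NOD regions.

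Distances to genes were read against other repeat classes, because a region annotated as a promoter, exon or UTR carries no repeat name and cannot be a member. A share of 5.93% (4.40 to 7.95) of NOD-enriched and 8.10% (5.88 to 11.1) of B6-enriched ERVK regions were within 5 kb of a transcription start site (TSS), beside 27.5% and 19.9% of all regions of the lists, promoters included. In repeat classes chosen the same way the shares were 8.92% and 8.42% for ERV1, 9.15% and 7.55% for L1, 12.4% and 7.50% for ERVL and ERVL-MaLR, and 20.1% and 12.8% for SINEs. The ERVK intervals overlapped those of ERV1 and L1 in both lists. The median distance to the nearest TSS was 49.6 kb in NOD and 38.9 kb in B6, beside 15.5 and 19.99 kb outside ERVK, again with promoters among the latter. By annotation, 78.4% (75.2 to 81.3) of NOD-enriched and 69.0% (64.5 to 73.2) of B6-enriched ERVK regions were intergenic and the others intronic, beside 82.6% and 74.7% for ERV1, 65.8% and 58.5% for L1, and 47.0% and 44.7% for SINEs. The regions were spread over many genes, since the 691 NOD regions had 629 different nearest genes and the 432 B6 regions 415.

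Within 5 kb of a TSS, the highest NOD scores were 211.7 for RMER16-int at Gm14393, 196.8 for MLTR25A at Adam23, a cell adhesion protein of neurons, and 181.9 for MMERVK9C_I-int in an intron of Nlrp9c, an oocyte-expressed gene of the NLR family. The highest B6 scores were lower, with 84.4 for MYSERV6-int at Trim11, a ubiquitin ligase, 69.9 for RLTR20A4 at chr17:36191522-36192368 near H2-T3, a non-classical MHC class I gene, and 69.7 for MLTR25A at 4930478L05Rik.

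Of 32 genes listed for a part in silencing endogenous retroviruses or in removing DNA methylation, 6 were the nearest gene of an ERVK region. In NOD this was Setdb1, the methyltransferase named above, with an RLTR13B3 region at chr3:95343045-95344862, 13.2 kb from its TSS, with a score of 193.4 and rank 175. In B6 they were the zinc finger protein gene Zfp932 with 31.1, Dnmt3l, a cofactor of DNA methylation, with 15.5, the chromatin assembly gene Chaf1b and the zinc finger gene Gm15446 with 14.6 each, and Tet2, which oxidises methylcytosine, with 9.73. The Tet2 region lay 264 kb from the Tet2 TSS. Any H3K27ac region had been assigned to 15 of the 32 genes in B6 and to 16 in NOD. Of 9 genes of the transient 2-cell-like state, Zfp352 and Zscan4f were nearest to NOD-enriched ERVK regions, at 51.1 and 73.2 kb and with scores of 21 and 9.47, while 3 of the 9 genes were nearest to any region of the NOD list. Of 21 immune genes it was Tlr2 alone, a receptor for bacterial lipoproteins, with an ERVB2_1A-I_MM-int region at chr3:83872239-83872939 in NOD, 31.0 kb from its TSS, with a score of 277.3 and rank 97, while 7 of the 21 were nearest to any region in NOD and 1 in B6. Genes were assigned by distance alone, and expression was not analysed here. In categories chosen after the gene names were seen, olfactory receptor genes were nearest to 3.04% of NOD-enriched and 1.16% of B6-enriched ERVK regions, beside 0.735% and 0.271% of all regions, and vomeronasal receptor genes to 1.74% and 1.39%, beside 0.490% and 0.181%. The olfactory shares of L1 were 3.05% and 2.36%, and those of ERV1 1.41% and 1.05%. The vomeronasal shares were 1.69% and 0% for L1, and 0.469% and 0% for ERV1. In NOD, L1 was thus close to ERVK in both categories.

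H3K4me3, the trimethylated lysine 4 of histone H3 that marks active promoters, had been measured in separate libraries and was not used to choose the regions. A same-strain H3K4me3 region overlapped 82 of 691 NOD-enriched ERVK regions (11.9%, 9.66 to 14.5), beside 9.84% of the whole NOD list, and 23 of 432 B6-enriched ones (5.32%, 3.57 to 7.86), beside 4.65%. These shares were near those of all regions and of ERV1 (12.7% in NOD and 4.21% in B6) and L1 (11.9% and 7.08%). Regions of the other strain overlapped less often, in 2 NOD-enriched ERVK regions (0.289%, 0.0794 to 1.05), beside 0.702%, and in 4 B6-enriched ones (0.926%, 0.361 to 2.36), beside 1.92%. The NOD H3K4me3 library held 22750449 tags and the B6 library 14791364, and the part of this difference in depth was not tested.

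The share with H3K4me3 differed between families. RLTR13 and RLTR9 had little of it, in 2 of 160 (1.25%, 0.343 to 4.44) and 2 of 60 (3.33%, 0.919 to 11.4) NOD-enriched regions and in 2 of 72 and 1 of 59 B6-enriched ones. In NOD it was found at 18 of 88 MMERVK regions (20.5%, 13.3 to 30.0), 8 of 18 RLTR17 regions (44.4%, 24.6 to 66.3), 7 of 21 RMER17 regions (33.3%, 17.2 to 54.6) and 4 of 12 RLTR20 regions. The intervals of MMERVK, RLTR17 and RMER17 did not overlap that of RLTR13. An overlap of 1 bp anywhere in a region was enough. Over both lists, 16 MMERVK and 7 RMER17 regions were 5 kb or wider, but 0 RLTR17 and 0 RLTR13 regions. The NOD median widths were 388, 271.5 and 353 bp for MMERVK, RLTR17 and RMER17, and 1097.5 bp for RLTR13. The part of width was not tested. IAP had the highest B6 share, with 6 of 8 regions (75%, 40.9 to 92.9), and 4 of 9 in NOD.

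**Figure D4:**
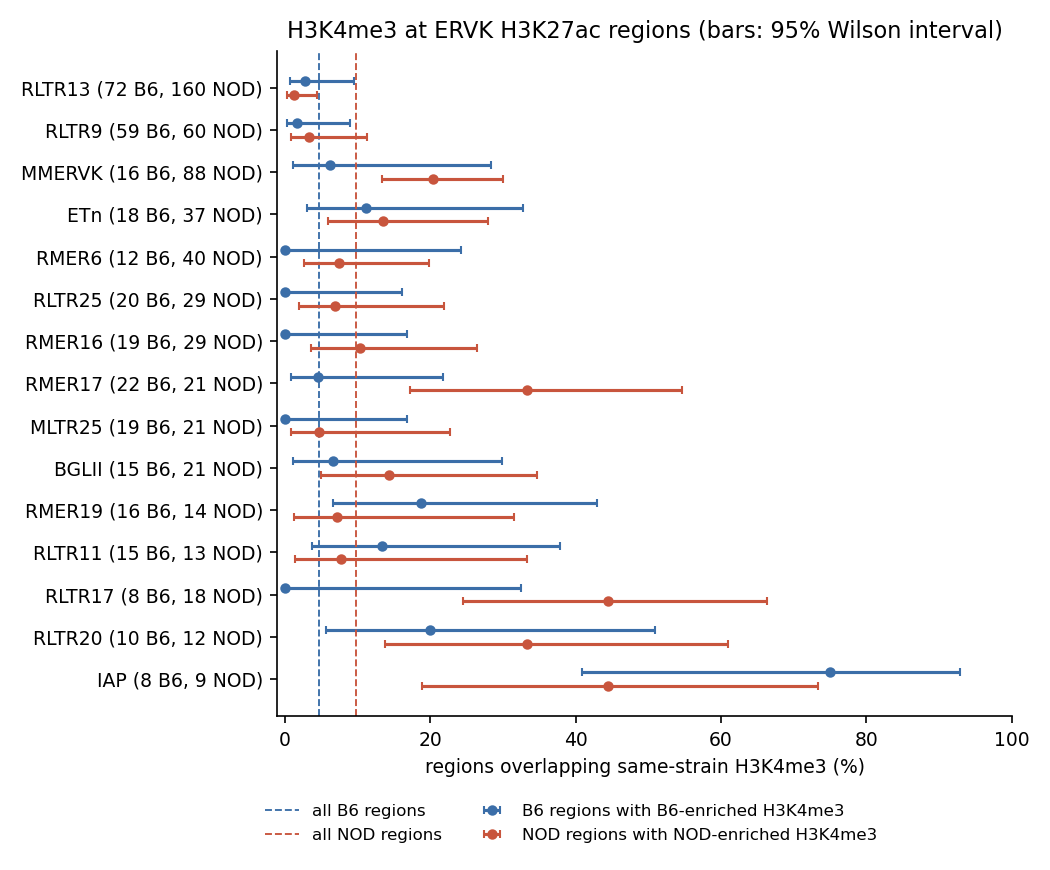
Share of ERVK H3K27ac regions that overlap same-strain H3K4me3 (x axis, percent) by family (y axis, with the number of regions per list), for B6 (blue) and NOD (red). Bars are 95% Wilson intervals and dashed lines are the shares of all regions, 4.65% in B6 and 9.84% in NOD. RLTR13 lies below the NOD line and MMERVK, RMER17, RLTR17, RLTR20 and IAP lie above it in NOD, each with its whole interval.

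The H3K4me3 tags behind these overlaps were counted in both strains. The 82 NOD-enriched ERVK regions with H3K4me3 held a median of 79.5 NOD tags (16 to 1335) and of 5.5 B6 tags (0 to 133), and 52 of them held at least 50 NOD tags. The 23 B6-enriched ones held a median of 65 B6 tags (16 to 219) and of 6 NOD tags (0 to 60). No tag of the other strain was found in 15 and 5 of them. Each H3K4me3 region had been required to hold at least 4-fold more tags than the other strain, so the direction of these values was fixed by the call.

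**Figure D5:**
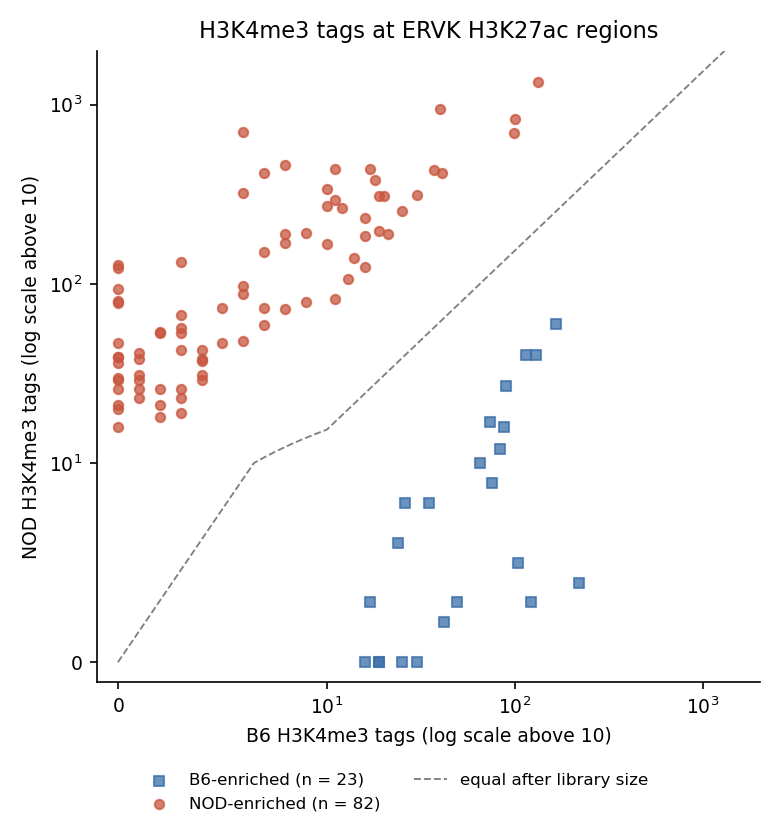
H3K4me3 tags of B6 (x axis) and NOD (y axis) in H3K4me3 regions that overlap an ERVK H3K27ac region of the same strain, each axis linear up to 10 and logarithmic above. Each point is 1 H3K27ac region, 23 B6-enriched (squares) and 82 NOD-enriched (circles), and the dashed line marks equal tags after scaling to library size. NOD-enriched regions reach 1335 NOD tags, and no B6-enriched region holds more than 219 B6 tags.

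Of the 5 regions with most tags in NOD, 3 lay on chromosome 2 with Zfp970 as the nearest gene. They were an MMERVK9E_I-int region with 1335 NOD and 133 B6 tags, the RLTR20B1 region of score 605.9, where 5 H3K4me3 regions held 951 and 40 tags, and an RMER17B region with 831 and 100 tags, 0.358 kb from the Zfp970 TSS. After scaling to library size these were ratios of 6.53 (95% interval from counting error 5.46 to 7.86), 15.5 (11.3 to 21.8) and 5.40 (4.39 to 6.72). An MMERVK9C_I-int region nearest to Zbtb24, a zinc finger gene needed for DNA methylation of centromeric repeats, had 703 and 6 tags (76.2, 34.8 to 208.3). The RMER16-int region at Gm14393 had 697 and 99 (4.58, 3.70 to 5.71). Of the high-scoring NOD regions named above, Rims2 had 321 NOD and 6 B6 tags, Nlrp9c 311 and 20, and Cdh9 139 and 14, while Mfap3l, Vmn1r238, Adam23, Setdb1 and Tlr2 had no same-strain H3K4me3 region.

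In B6, most tags were found at IAPLTR1a_Mm in an intron nearest to Sec11a, a signal peptidase subunit, with 219 B6 and 4 NOD tags (84.2, 32.4 to 311.8). RLTR11A near Pla2g1b, a secreted phospholipase, had 166 and 60 (4.26, 3.15 to 5.82), and RMER20A at Dnmt3l 129 and 40 (4.96, 3.45 to 7.26), at chr10:78037968-78038659, 3.97 kb from the TSS. IAPLTR1_Mm nearest to Syne2, a nuclear envelope protein, had 121 and 3 (62.0, 20.7 to 305.0), and RLTR20B1 near Rela, an NF-kappa-B subunit, 114 and 40 (4.38, 3.03 to 6.45). Wiz had 104 and 5 tags, Sec61a1 30 and none, and Magi1, Mansc4 and Aspa had no same-strain H3K4me3 region.

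IAP elements with both marks were found in each strain, and most were in introns. In B6 these were the LTRs near Sec11a and Syne2 just named, with H3K27ac scores of 123.3 and 111.7, and weaker regions nearest to Rnf157 (38.8), Cdk5rap1 (27.4), Ksr2 (18.2) and 5730507C01Rik (12.7). In NOD they were an IAPEz-int region of 13.7 kb in an intron of Park2, the parkin gene, with a score of 265.2 and 78 NOD tags but no B6 tag, and regions nearest to Gm13034 (159, with 192 and 9 tags), Plekha5 (26.9, with 48 and 6) and Mme (17.9, with 79 and 9). The IAP names differed, with IAPLTR1 and IAPLTR2 or IAPEz-int in all 6 B6 regions and IAPEY names in 3 of the 4 NOD regions.

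Motifs of transcription factors were searched in the 300 bp at the centre of each region, on both strands, in the reference sequence. The CCAAT box, a promoter motif (CCAAT), was found in 40.4% (37.6 to 43.3) of ERVK regions and in 31.6% of regions outside ERVK, and the TATA box (TATAAA) in 25.1% (22.7 to 27.7) and 16.3%. The G and C content of the same windows was lower in ERVK, with a median of 43.7% against 47.0%, and its part in the motif shares was not tested. CCAAT was most frequent in RLTR11, in 20 of 28 windows, and in BGLII, in 25 of 36, and TATAAA in RLTR9, in 57 of 119. The motifs of ES cell factors are longer than CCAAT and TATAAA, and were rare both in ERVK and outside it. The octamer ATTTGCAT, bound by OCT4, was found in 1.87% (1.23 to 2.84) of ERVK regions and in 2.45% of the others. The composite site of OCT4 and SOX2 was found in 0 of 1123 ERVK windows, which by the rule of 3 counts over the total, used in place of the Wilson bound, allows a share of up to 0.267%, and in 2 of 10528 others. The ESRRB motif TCAAGGTCA was found in 1.78% (1.16 to 2.73) and 1.41%, in 9 of 49 RLTR25 windows among them. The KLF motifs GGGCGTGGC and GGGTGTGGC were found in 0.445% and 0.801% of ERVK windows, beside 0.437% and 0.893%, and the STAT motif TTCCNGGAA in 0.890%, beside 1.13%. The E-box CACGTG was found in 4.81% (3.70 to 6.22) and 4.20%, and in 7 of 15 RLTR13B2 windows. These are matches of letters and not bound sites.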

How the data were processed

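ChIP-Seq of H3K4me3 and H3K27ac was performed by the study in B6 and NOD ES cells, 1 library per strain and mark, as 50 bp single-end reads as the labels state. Per the study's methods, reads were mapped to mm10 with bowtie2 and analysed with HOMER at default settings. The submitters' processing notes list mm9, STAR 2.2.0c, CASAVA 1.8.2 and HOMER instead. The H3K27ac file headers name mm10, no region ran past an mm10 chromosome end, and mm10 was used. The treatment of reads that map to several repeat copies is not given in the sources used here, nor can copies that the B6-derived reference lacks be seen in these lists. How far either moved a value was not tested.

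H3K27ac regions were called by the authors with the HOMER super enhancer pipeline, and the deposited score is own minus other strain signal. The next deposited column follows the slope of the ranked score curve and, for the 5 top-scoring regions per list, holds the region size, and these were counted as super enhancers. Depth of the H3K27ac libraries is unknown. H3K4me3 regions were called by the authors in 500 bp steps with a tag threshold of 8, and with at least a 4-fold ratio of tags and a p-value of 1.00e-04 over the other strain, per the file headers. The deposited counts are tags per region, scaled to the smaller library in the NOD list, from which whole tags were recovered with the library totals. The deposited normalised signal and the deposited p-value of each region were not quoted, and the deposited fold was used in one alternative only.

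Members were regions whose detailed annotation ended in ERVK, and 3 uncertain entries were left out. Families were IAP, ETn, MMERVK, and otherwise the letters and first number of a repeat name. Internal parts were names ending in int. Overlap was at least 1 bp. The text names the 5 highest-scoring regions per list, the 3 highest within 5 kb of a TSS, the 5 with most H3K4me3 tags, regions of the gene lists, the 10 most common repeat names and families of at least 20 regions; other names were chosen after their values were seen. The members, gene lists and families were chosen with earlier results of these data known. A spreadsheet had turned 10 gene symbols of the NOD list into dates, none in ERVK. Sequence and the motif windows came from RefSeq GRCm38.p6, and sequence pairs were aligned globally. Python 3.11.15 was used with numpy 2.4.6, pandas 2.3.3, scipy 1.17.1, Biopython 1.88 and matplotlib 3.10.9. Overlap, interval and motif functions were tested on simulated data. Alternatives were a minimum score, a maximum width, a higher slope value, other overlap and TSS windows, a higher H3K4me3 fold, shorter motif windows, nearby regions counted once, and chromosomes left out.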

Additional observations from a re-analysis of the deposited data

How the results depend on the processing

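Of 77 alternative values for 44 results, 50 stayed within the 95% interval of the reported value. At a score of at least 20, the NOD share of ERVK regions was 68.7% (all regions 55.6%), and ERVK made up 9.85% of the B6 and 17.3% of the NOD list. The NOD shares then were 76.1% for RLTR13, 60.6% for RLTR9, 91.7% for MMERVK, 50% for ETn, 75% for RMER16 and 71.4% for RLTR11, the latter of 7 regions. At widths of at most 1 kb the NOD share was 57.5% (all regions 51.5%), and ERVK made up 9.15% of the NOD list. A slope value of at least 2 left 5.56% super enhancers in B6 and 9.99% in NOD (all regions 4.47% and 4.83%). An H3K4me3 fold of at least 8 lowered the same-strain overlap to 3.47% in B6 and 7.67% in NOD (all regions 2.73% and 5.91%), and a distance of 1 kb in place of overlap raised the other-strain share in B6 to 2.78% (all regions 3.403%). Within 1 kb of a TSS lay 0.463% of B6 and 0.289% of NOD regions (all regions 10.01% and 16.6%), and within 20 kb 34.3% and 29.5% (48.8% and 53.0%). By score per kb, 53.1% of NOD-enriched ERVK regions lay above the median of the others. In 150 bp windows the shares were 0.712% for the octamer, 0.356% for STAT, 24.9% for CCAAT, 12.8% for TATAAA and 2.14% for the E-box, as fewer bases were searched, beside 1.12%, 0.570%, 17.4%, 8.65% and 2.15% outside ERVK. With nearest genes limited to 50 kb, 0 genes of the 2-cell-like state remained. Leaving out chromosomes 6, 8, 11, X and Y moved no result past its interval, and counting regions within 10 kb once changed nothing, since no list had regions that close.

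No paired analysis was possible because each strain and mark has 1 library. Without replicates, the spread between libraries is unknown, and the unknown depth of the H3K27ac libraries limits any comparison of list sizes.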
